A study of Homo sapiens with 4 samples.

Results

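The sensors and effectors of double-stranded RNA described here are the products of 9 genes, RIGI, IFIH1, DHX58, MAVS, EIF2AK2, OAS1, OAS2, OAS3 and ADAR, whose rows were found by symbol in the platform annotation. They held 10 of the 36176 array rows that carry a single gene symbol, since MAVS had 2 rows and the other genes had 1 each. The cells were H929, a human multiple myeloma cell line, and each sample was read on its own whole-transcript array. There were 2 untreated samples and 2 that had received meayamicin B at 3 nM for 8 h. Meayamicin B is a small molecule that inhibits pre-mRNA splicing by binding the SF3B complex. No vehicle is named for the untreated samples, the samples come from a single cell line, and the labels do not say whether the replicates were separate cultures. The p-values therefore cover the spread among these 4 arrays and no more.

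Cells recognise double-stranded RNA, a hallmark of many viruses that also arises from their own transcripts, through a small set of cytosolic proteins. RIG-I (gene RIGI) and MDA5 (IFIH1) bind such RNA and signal through the mitochondrial adaptor MAVS to switch on type I interferon genes, and LGP2 (DHX58) modulates both sensors. The kinase PKR (EIF2AK2) halts translation when it binds double-stranded RNA, the OAS enzymes make a short oligoadenylate messenger that leads to RNA decay, and ADAR edits adenosines in double-stranded RNA, which keeps cellular RNA from triggering the sensors. Most of these genes are themselves induced by interferon.

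The deposited values are log2 expression summarised for whole genes, so isoforms were not told apart and levels are compared between arrays for the same row. An array's background was the 95th percentile of its 612 negative control rows, and it was higher on the treated arrays (5.03 and 5.13) than on the untreated arrays (4.50 and 4.76). All 11 plasma cell and myeloma markers examined, among them SDC1, TNFRSF17 and IRF4, were above background on all 4 arrays. Of these, SLAMF7 fell (-1.52) and PRDM1 rose (0.45) in the trended fit described next. Of 6 T cell markers CD3E alone was above background, and of 6 monocyte markers LYZ, S100A8 and S100A9 were above it on no array while CD14, CSF1R and FCN1 were on at least 1. Of 5 measured fibroblast markers COL1A1 and COL1A2 were above it, and of 6 plasmacytoid dendritic cell markers IL3RA, GZMB and TCF4 were, but not CLEC4C, LILRA4 or NRP1. The summed linear level of the dendritic cell markers was 357.2 and 350.4 untreated and 237.4 and 274.9 treated, with TCF4, which many cells express, lower in the trended fit, and that of the plasma cell markers was 27250 and 27780 untreated and 26110 and 25310 treated. The part of either in the results was not tested. Over the 6 dendritic cell markers the median log2 difference was 0.07, and TCF4 alone was at -0.93. The samples are of a single cell line, and in its bulk RNA fewer expressing cells and less RNA per cell cannot be told apart. The groups were compared with limma, with Benjamini-Hochberg adjustment over 135750 rows and a threshold of 0.05. A default fit and a trended fit, in which the prior variance follows the signal level, are given side by side, and "called" means past the threshold.

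In the default fit 0 of the 10 rows were called, against a background of 0.0162% of all rows, and 4 had an unadjusted p under 0.05. In the trended fit 2 rows fell, that of OAS2 and the second row of MAVS, where 0.922% of all rows were called lower and 0.248% higher. Among named genes above background in both arrays of at least 1 group, 6.53% were called lower and 0.727% higher. Of the 10 member rows 8 met that filter, RIGI through the treated arrays alone. Values for named genes, here and below, take each gene at its brightest row. They therefore leave out the second MAVS row, which is among the called rows and among the lower rows counted below. Leaving out treated replicate 1 lowered the trended count to 1, the second MAVS row, and leaving out any other single array (either untreated replicate or treated replicate 2) lowered it to 0. The untreated and treated values did not overlap in 6 rows that were lower and 1 that was higher. Over all rows 17.9% were lower and 21.1% higher without overlap, and over the 14296 named genes above background 39.5% were lower and 18.9% higher. The median log2 difference of the 10 rows was -0.28, beside -0.09 for the named genes above background.

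**Figure D1:**
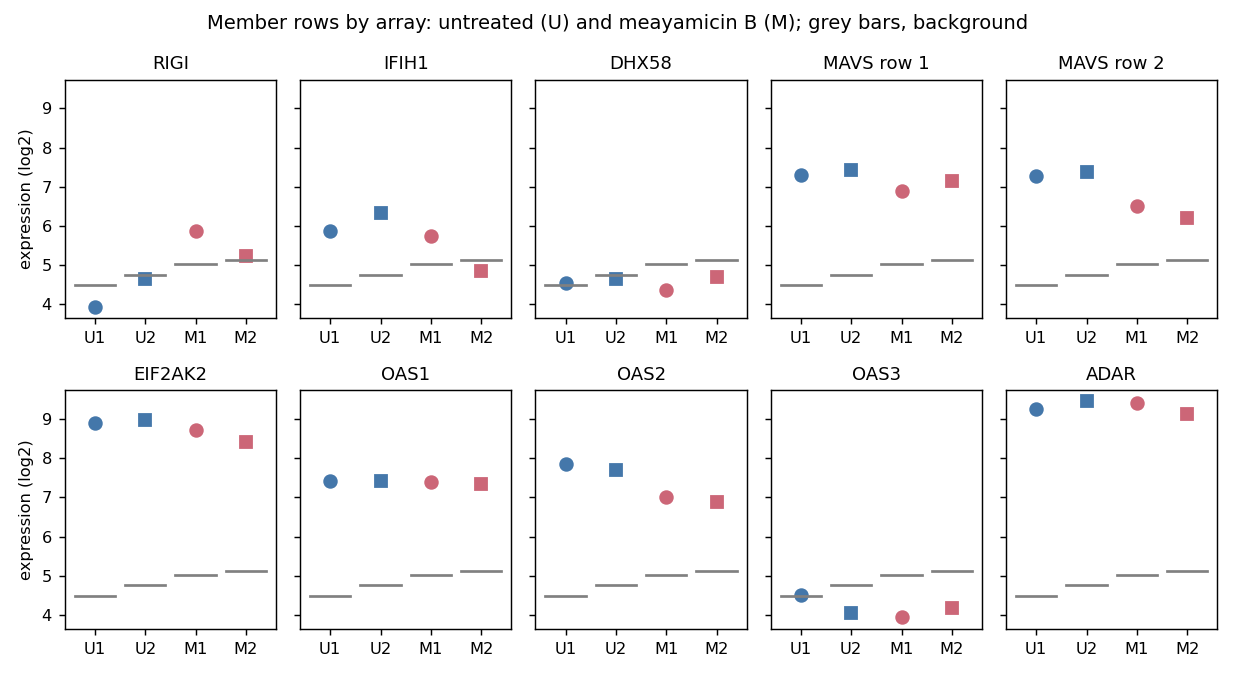
Log2 expression of each member row on the 4 arrays, with untreated arrays (U1, U2) in blue, meayamicin B arrays (M1, M2) in red and a grey bar at the background of each array. RIGI lies above the bar on the treated arrays only, whereas OAS2 and both MAVS rows lie above it throughout and are lower after treatment.

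Among the sensors, RIGI was the only member row with a positive difference. RIGI, on chromosome 9 at 32455302 to 32526196 (GRCh38.p14), was at 3.92 and 4.63 on the untreated arrays and at 5.86 and 5.23 on the treated arrays. Both treated arrays were higher than both untreated arrays, and RIGI was above background on the treated arrays alone. It cleared the treated backgrounds by 0.83 and 0.11, so in replicate 2 it lay just over the limit. The log2 difference was 1.27 (SE 0.31, 95% confidence interval 0.54 to 2.0), and the pairs gave 1.94 for replicate 1 and 0.60 for replicate 2. With both untreated values raised to the background of their arrays, the group means differed 1.89-fold. That figure averages the replicates, and the replicate 2 pair alone differed by less. It also leaves out that background was higher on the treated arrays. The limma adjusted p was 0.238 in the default fit and 0.106 in the trended fit, so RIGI was not called.

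IFIH1, the gene of MDA5, ran the other way from RIGI. Its row on chromosome 2 at 162267074 to 162318684 was at 5.86 and 6.34 untreated and at 5.73 and 4.84 treated. The groups did not overlap, but replicate 1 of the treated arrays lay close to replicate 1 of the untreated arrays, and the treated replicate 2 value was below background. The log2 difference was -0.81 (SE 0.32, 95% confidence interval -1.58 to -0.05), from pairs of -0.13 for replicate 1 and -1.50 for replicate 2, and the limma adjusted p was 0.499 and 0.371 in the default and trended fits. Without treated replicate 2 the difference was -0.37, and without treated replicate 1 it was -1.26.

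The replicate 1 and replicate 2 pairs differed widely for RIGI and for IFIH1. A set of control RNAs differed in another way, in level between the replicate numbers in both groups, while treated and untreated values of the same number lay much closer. The poly-A control dap read 9.42 and 9.97 on the replicate 1 arrays of the untreated and treated groups and 2.88 and 3.19 on the replicate 2 arrays. Controls phe and thr showed the same division between the replicate numbers, and their part in the pair differences was not tested. With the replicate number as a block, RIGI was called in the trended fit (limma adjusted p = 0.0406) and not in the default fit (limma adjusted p = 0.242), and IFIH1 was called in neither (limma adjusted p = 0.225 and 0.478).

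DHX58, whose product LGP2 lacks the signalling domains of the other sensors, was at the limit of detection. It lay on chromosome 17 at 42101411 to 42112714 and read 4.55 and 4.65 untreated and 4.36 and 4.69 treated. The groups overlapped, and the row was above background on 1 of the 4 arrays. The difference of -0.08 (95% confidence interval -0.56 to 0.40) carries no usable fold.

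MAVS, the adaptor that both sensors engage through their CARD domains, lies on the plus strand of chromosome 20 at 3846834 to 3876118 and had 2 rows. The first row, which the annotation ties to the Entrez identifier of MAVS, was at 7.29 and 7.42 untreated and at 6.88 and 7.15 treated. The groups did not overlap, and the log2 difference of -0.34 (SE 0.20, 95% confidence interval -0.81 to 0.13) was not called, with a limma adjusted p of 0.678 in the default and 0.596 in the trended fit.

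The second row, which carries the symbol MAVS without an Entrez identifier, was at 7.27 and 7.38 untreated and at 6.51 and 6.19 treated. Both treated values were well below both untreated values, and the row was 1.96-fold lower (log2 difference -0.97, SE 0.20, with -0.76 and -1.19 in the 2 pairs). It fell in the trended fit (limma adjusted p = 0.0398) and did not pass in the default fit (limma adjusted p = 0.177). The log2 difference of the second row minus that of the first was -0.64. An exact two-sided permutation test of 2 arrays against 2 gave 0.333. That is the smallest p it allows, so the test could not decide whether the rows differ. Row identifiers on this platform run along one strand and then the other. The 10 nearest identified rows with a known strand were all plus-strand genes for the first MAVS row and all minus-strand genes for the second. The second row lies in that order between CENPB and MIR103B2, and whether it measures MAVS mRNA or a transcript of the opposite strand cannot be told apart here. The other rows with a strand in the RefSeq table, those of RIGI, IFIH1, EIF2AK2, OAS1, OAS3 and ADAR, sat among genes of their own strand.

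**Figure D2:**
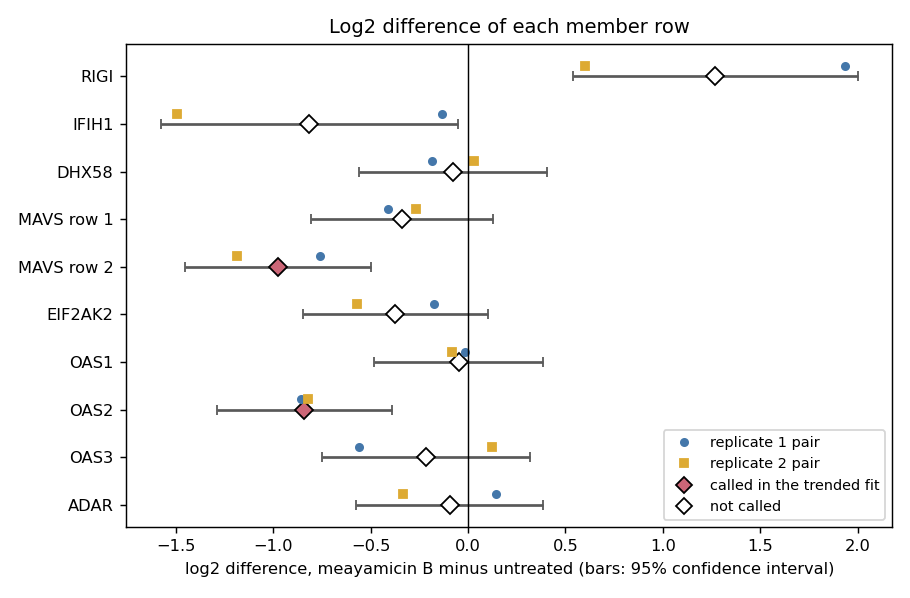
Log2 difference of each member row, meayamicin B minus untreated, from the default limma fit (diamonds with 95% confidence intervals), with the replicate 1 and replicate 2 pairs drawn above as a circle and a square. The pairs nearly coincide for OAS2, at -0.86 and -0.82, and lie far apart for RIGI and IFIH1.

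Of the effectors, EIF2AK2 (PKR) was clearly expressed and slightly lower. Its row, on chromosome 2 at 37099210 to 37156980, read 8.89 and 8.98 untreated and 8.72 and 8.40 treated. The groups did not overlap, and the log2 difference was -0.37 (SE 0.20, 95% confidence interval -0.85 to 0.10), which neither fit called (limma adjusted p = 0.645 and 0.401).

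OAS1, OAS3 and OAS2 lie side by side on chromosome 12. OAS2, at 112978519 to 113011723, was at 7.86 and 7.70 untreated and at 7.01 and 6.88 treated. Both treated arrays were lower by a margin several times the gap within either group. OAS2 was 1.79-fold lower, with a log2 difference of -0.84 (SE 0.19, 95% confidence interval -1.29 to -0.39) and nearly equal pairs of -0.86 and -0.82. It fell in the trended fit (limma adjusted p = 0.0430) and did not pass in the default fit (limma adjusted p = 0.211). Without single arrays its trended limma adjusted p ranged from 0.0754 to 0.219, and it was 0.0942 after a second quantile normalization.

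OAS1, at 112906962 to 112933219, read 7.41 and 7.41 untreated and 7.39 and 7.34 treated. The 4 values were nearly the same, and the log2 difference was -0.05 (95% confidence interval -0.48 to 0.38), with a limma adjusted p of 0.969. The log2 difference of OAS2 minus that of OAS1 was -0.79. The exact permutation test again gave its smallest p of 0.333, so it could not decide whether these genes differ. OAS3, at 112938474 to 112973251, was at 4.51 and 4.05 untreated and at 3.95 and 4.17 treated. It was above background on 1 untreated array alone, and its difference of -0.22 (95% confidence interval -0.75 to 0.32) gives no fold. The 2 nearest genes on either side, RPH3A and MIR1302-1 before OAS1 and the pseudogenes IMMP1LP2 and RPS15AP32 after OAS2, were above background on none of the arrays.

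**Figure D3:**
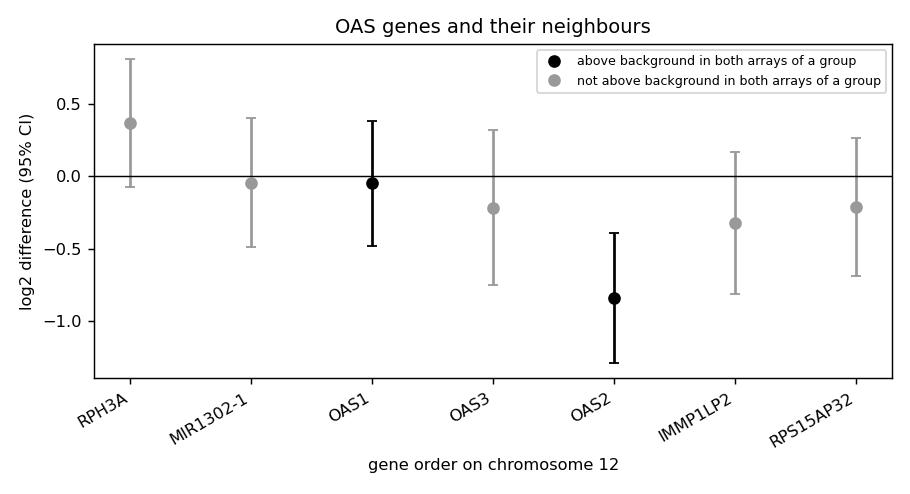
Log2 difference, meayamicin B minus untreated, with 95% confidence intervals for the OAS genes and the 2 genes on either side, in their order on chromosome 12. Black points are above background in both arrays of a group, and of these OAS2 lies at -0.84 and OAS1 at -0.05.

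ADAR, the editing enzyme, overlapped between the groups. On chromosome 1 at 154582057 to 154627997, it read 9.27 and 9.45 untreated and 9.41 and 9.12 treated. Neither group was the higher throughout, the pairs had opposite signs (0.14 and -0.33), and the log2 difference was -0.09 (95% confidence interval -0.58 to 0.39, limma adjusted p = 0.940). The interferon-induced and the constitutive form of ADAR start from different promoters and share this row.

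With each gene taken at its brightest row, OAS2 was the member with the largest moderated t, and only the second MAVS row exceeded it. By Euclidean distance between profiles centred on their own mean over the 4 arrays, the 3 genes most like OAS2 among 12397 others above background on all arrays were SPAG1, NUDT2 and TLCD5. Their log2 differences were -0.87, -0.80 and -0.87, and TLCD5 fell in the trended fit (limma adjusted p = 0.0451). Differences near that of OAS2 follow from choosing these genes by their likeness to it on the same arrays.

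Interferon induces genes through a response element that interferon-activated transcription factors bind, and its core GAAANNGAAA was searched on both strands in RefSeq windows from 250 bases before to 50 after each gene's start (GRCh38.p14). DHX58 and OAS2 were not searched. The other 7 genes had 9 windows, and 3 genes held the core, against 3.57% of all 35116 windows and 4.38% of 27305 genes. Their stretches are shown because these are the searched members whose windows hold the letters of the core. Capitals mark the core, which runs in the opposite direction at the first IFIH1 stretch, where 2 matches overlap.

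IFIH1, chr2:162318666-162318873, minus strand: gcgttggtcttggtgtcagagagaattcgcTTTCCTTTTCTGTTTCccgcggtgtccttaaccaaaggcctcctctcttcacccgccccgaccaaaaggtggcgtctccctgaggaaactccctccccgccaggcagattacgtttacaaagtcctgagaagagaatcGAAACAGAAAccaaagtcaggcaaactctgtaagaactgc
EIF2AK2, chr2:37156947-37157016, minus strand: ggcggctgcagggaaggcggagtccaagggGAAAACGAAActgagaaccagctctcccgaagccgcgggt
OAS3, chr12:112938301-112938501, plus strand: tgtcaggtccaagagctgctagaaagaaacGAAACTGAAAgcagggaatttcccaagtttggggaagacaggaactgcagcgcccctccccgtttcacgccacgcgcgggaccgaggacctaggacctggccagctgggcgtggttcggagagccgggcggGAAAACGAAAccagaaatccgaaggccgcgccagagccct

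The match nearest the start began 21 bases before it in IFIH1, 6 bases before it in EIF2AK2 and 12 bases before it in OAS3. None of these 3 genes was called, and their differences were -0.81, -0.37 and -0.22. The windows of RIGI, MAVS, OAS1 and ADAR did not hold the core as searched, with its spacer fixed at NN. Those of RIGI and OAS1 hold GAAACGAAA, which has a shorter spacer and was not counted. Among named genes above background with a window, the 345 with the core had a median log2 difference of -0.19 and 9.86% fell in the trended fit. The corresponding values were -0.15 and 8.43% for the 8693 without it.

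The surrounding pathway was then described through lists of genes, 111 measured in all. In the default fit 0 of them were called, against 0.0327% of all named genes. In the trended fit 10 fell and 0 rose, where 6.53% of named genes above background fell and 0.727% rose. The 10 are counted over all 111 genes, dim ones included, so the bases of the counts and the shares differ. Counts of called list genes are from the trended fit unless another is named.

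Of the genes that carry the signal from RIG-I-like receptors to interferon, 16 of 20 had a row of their own, and 0 were called. Their median log2 difference was -0.11. The lowest by moderated t were ZC3HAV1, an antiviral RNA-binding protein, at -0.68 (SE 0.21, 8.20 and 8.58 untreated against 7.68 and 7.75 treated), and TRIM14, an adaptor at MAVS, at -0.50 (SE 0.19). The highest were the kinase gene IKBKE at 0.51 (SE 0.21) and the ubiquitin ligase gene TRAF3 at 0.46 (SE 0.21).

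Interferon genes were described next. IFNB1, the interferon that MAVS signalling classically induces, read 2.54 and 2.73 untreated and 2.19 and 2.25 treated, below background on all 4 arrays. IFNL2, a type III interferon, was at 4.00 and 3.03 untreated and at 4.78 and 4.52 treated, higher without overlap but also below background on all 4 arrays, and was not called (difference 1.14, limma adjusted p = 0.311 and 0.194 in the default and trended fits). IFNL3, another type III interferon, was above background on all 4 arrays, at 5.57 and 5.02 untreated and at 5.55 and 5.55 treated. Its groups overlapped, and it was not called. Of the receptor genes and their kinases, IFNAR1 was at -0.47 (SE 0.19), TYK2 at -0.42 (SE 0.19) and IL10RB at 0.37 (SE 0.19). Of the 17 measured genes 8 were above background, 0 were called, and the median was 0.00.

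Among genes that interferon stimulates, 14 of 32 were lower and 4 higher without overlap between the groups. The shares were 39.5% lower and 18.9% higher among all named genes above background, and 17.9% and 21.1% among all rows. Neither set matches the list, whose counts include dim genes such as CMPK2 (lower) and IFIT5 and IFI44L (higher). Of the 32 genes 20 were above background, with a median of -0.25 beside -0.09 for all named genes above background. SAMD9, an antiviral restriction factor, fell 1.83-fold, from 8.40 and 8.39 to 7.69 and 7.36 (log2 difference -0.87, SE 0.20, limma adjusted p = 0.0338 in the trended and 0.220 in the default fit). It was the 1 gene of the list that was called, or 5% of those above background. Its paralog SAMD9L was at -0.85 (SE 0.19, limma adjusted p = 0.0608 in the trended fit), from 7.10 and 7.13 to 6.20 and 6.34. That count dropped to 0 on leaving out either untreated array or treated replicate 2. CMPK2 (-0.93), IFIT5 (0.55) and IFI44L (0.56) had the other extreme values, all below background on all 4 arrays. ISG15, a ubiquitin-like protein that interferon strongly induces, was below background on all 4 arrays as well, at 4.13 and 4.26 untreated and 4.57 and 3.56 treated.

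Around PKR, 20 genes were measured with a median of -0.12, and 1 was called. EIF2B5, the catalytic subunit of the exchange factor eIF2B that phosphorylated eIF2 inhibits, fell 2.61-fold, from 7.20 and 7.54 to 5.63 and 6.35. Its log2 difference was -1.38 (SE 0.28), with -1.57 and -1.19 in the 2 pairs, and its limma adjusted p was 0.0296 in the trended and 0.167 in the default fit. That count dropped to 0 on leaving out either untreated array or treated replicate 1. PRKRA, which encodes the PKR activator PACT, was at -0.59 (SE 0.19, limma adjusted p = 0.0735 in the trended fit) and EIF2B4, another eIF2B subunit, at -0.51 (SE 0.18). EIF2AK3, the kinase PERK of the endoplasmic reticulum, was at 0.28 (SE 0.20), and PPP1R15A, a phosphatase subunit that reverses eIF2 phosphorylation, at 0.25 (SE 0.22).

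In the OAS arm, ABCE1, which encodes a ribosome recycling factor, fell 1.82-fold. It was at 11.01 and 11.03 untreated and at 10.24 and 10.07 treated, and both treated values lay far below the untreated ones. The log2 difference was -0.87 (SE 0.19, limma adjusted p = 0.00403 in the trended and 0.193 in the default fit). The count for the 5 measured genes of this arm was 1 without any single array. OASL, an OAS relative without synthetase activity, was at -0.29 (SE 0.21) and CNOT7, a deadenylase, at -0.13 (SE 0.20). PDE12, which degrades the oligoadenylate messenger, was at 0.02 (SE 0.20) and the decapping gene DXO at -0.06 (SE 0.19).

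Other proteins that bind double-stranded or structured RNA held most of the calls. Of 24 measured, 21 were above background, 7 fell and 0 rose, which is 33.3% of those above background beside 6.53% of all named genes above background. The median over the 24 was -0.25. The 2 nucleases that make microRNAs were among them: DROSHA was 2.04-fold lower, from 9.15 and 9.51 to 8.21 and 8.39, and DICER1 1.79-fold lower, from 7.45 and 7.50 to 6.69 and 6.57. PNPT1, a mitochondrial exonuclease that helps to degrade mitochondrial double-stranded RNA, was 2.11-fold lower, from 9.65 and 9.32 to 8.40 and 8.41. Its helicase partner SUPV3L1 was at -0.01 (SE 0.18).

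ZBP1, a sensor of Z-form nucleic acids that shares its Z-binding fold with ADAR, was 1.81-fold lower, from 8.72 and 8.77 to 7.88 and 7.91, with -0.85 and -0.86 in the 2 pairs. The helicase genes DHX36 and DDX1 fell 2.03-fold and 2.33-fold, and DUS2, a tRNA dihydrouridine synthase with a double-stranded RNA-binding domain, fell 2.39-fold. For these 7 genes the limma adjusted p lay between 0.00731 and 0.0479 in the trended fit and between 0.147 and 0.201 in the default fit. The count was 3 without untreated replicate 1 and 1 without untreated replicate 2, and 6 and 5 without the treated replicates. NLRP1 (-0.77, SE 0.24) and STAU2 (-0.65, SE 0.21) were lower without passing, and the highest were ADAD2 (0.31, SE 0.19) and TICAM1, the adaptor of the endosomal sensor TLR3 (0.23, SE 0.19).

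**Figure D4:**
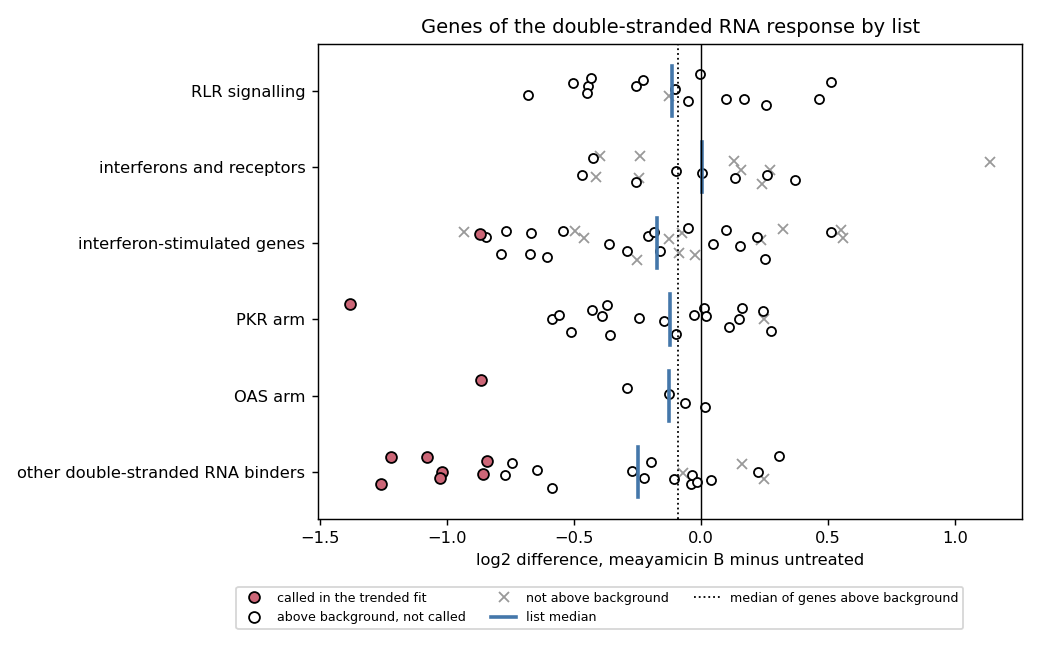
Log2 difference of every measured gene in the 6 lists, with genes called in the trended fit in red, other genes above background as open circles and genes not above background in both arrays of either group as crosses. Blue bars are list medians, and the dotted line is the median of all named genes above background. The 7 red points of the other double-stranded RNA binders lie between -1.26 and -0.84.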

How the data were processed

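Total RNA was labelled with a whole-transcript kit and hybridised to 1 array per sample, per the labels' protocols. The authors deposited log2 values made with RMA, and Transcriptome Analysis Console and build hg38 are named in the submitters' processing notes, without versions. RMA equalises the arrays, so a change in total RNA would be removed. A second quantile normalization still moved the deposited values, as given in the last section.

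Of 138745 rows, 2995 control rows were left out. Symbols were updated through the RefSeq gene table, which 35415 of the 36176 single-symbol rows matched. In the lists each gene was represented by its brightest row. The limma package (3.58.1, under R 4.3.3) was fitted across all rows with default settings and, as the trended fit, with trend and robust options. SEs and intervals come from the default fit. Both fits were tested on simulated arrays, with row variances taken from the trended fit and planted changes larger than the difference of any member or list gene. There the trended fit made more false calls than the default fit. The false share of calls was above the threshold in the trended fit and below it in the default fit. The simulated setting differs from these data, so the false shares need not carry over. The trended calls given here may still hold more false ones than the threshold allows. A row that was above background in both arrays of at least 1 group counted as above background. The check of pairing gave a correlation of 0.0222 over all rows, and of 0.0962 over named genes above background, between the deviations of arrays with the same number. The labels do not say that a number marks a shared preparation, so the replicate block is an alternative.

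The members, lists and fits were chosen with earlier results of these data known. Named genes were all members, list genes called in either fit, and the 2 highest and 2 lowest others of each list by moderated t. IFNB1, IFNL3, ISG15 and SUPV3L1 were named after their values were seen. Alternatives were a replicate block, a further quantile normalization, scaling to ribosomal protein genes, a restriction to rows above background, the other prior, a 2-fold minimum, the mean of a gene's rows and leaving out each array.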

Additional observations from a re-analysis of the deposited data

How the results depend on the processing

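Of the member differences, those of RIGI, IFIH1, MAVS, EIF2AK2 and OAS2 kept their sign under each alternative run. RIGI ranged from 0.91 to 1.63, IFIH1 from -1.26 to -0.37, MAVS from -0.66 (the mean of its rows) to -0.20 (without treated replicate 1), EIF2AK2 from -0.53 (without treated replicate 1) to -0.22 (without treated replicate 2) and OAS2 from -0.92 to -0.73. Differences near 0 changed sign: OAS1 to 0.076 and ADAR to 0.0098 after a second quantile normalization, ADAR to 0.051 without treated replicate 2, DHX58 to 0.085 without treated replicate 1 and OAS3 to 0.014 without untreated replicate 1. Without single arrays DHX58 ranged from -0.24 to 0.085, OAS3 from -0.45 to 0.014 and ADAR from -0.24 to 0.051. The second quantile normalization moved the median of named genes above background from -0.09 to -0.03. Bright members moved the same way, EIF2AK2 to -0.25, the first MAVS row to -0.23 and OAS2 to -0.73. The dim rows of RIGI, DHX58 and OAS3 moved slightly the other way.

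The number of member rows called in the trended fit went from 2 to 0 after quantile normalization, with a 2-fold minimum or in the default fit, to 0 to 1 without single arrays, and to 1 without the second MAVS row, a setting added after the data had been seen. The filter on dim rows raised the default count from 0 to 2 and gave OAS2 at -0.84 a limma adjusted p of 0.0388. RIGI passed in the trended fit with that filter (limma adjusted p = 0.0213), which it met through the treated arrays alone. With the replicate number as a block RIGI passed too (limma adjusted p = 0.0406) and 3 member rows were called. The labels do not say what the replicate numbers share, while the poly-A controls differed between them in both groups.

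With the filter on dim rows, default counts were 2 for interferon-stimulated genes, 1 for the PKR list, 1 for the OAS list and 7 for the other binders, where the trended fit has 1, 1, 1 and 7 and the default fit 0. Trended counts with the filter were 1 for receptor signalling, 1 for interferons and receptors, 4 for interferon-stimulated genes and 3 for the PKR list, and with the replicate block 1, 2, 4 and 2. Quantile normalization and the 2-fold minimum left 0 interferon-stimulated genes, and the 2-fold minimum 0 of the OAS list. Without single arrays the trended counts were 0 to 1 for interferon-stimulated genes, 0 to 1 for the PKR list and 1 to 6 for the other binders. With 2 arrays per group, rows near background, as for DHX58 and OAS3, cannot show whether the gene differed.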
